A study of Homo sapiens with 16 samples.

Results

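The genes described here are 32 genes of glucose breakdown and of the response to low oxygen, measured in lymphoma and leukaemia cell lines before and after treatment with drugs that act on chromatin. They come from a list of 34 symbols chosen by function, with earlier results of these data known, and were 32 of the 11963 genes tested. SLC16A3 and CA9 had no entry in the table that names the array's probe sets and were not analysed here. RNA from 8 human cell lines was hybridised to 16 Affymetrix HG-U133A arrays, with 1 treated and 1 untreated array per line. Treated anaplastic large cell lymphoma (ALCL) cells were JB6, FE-PD, SU-DHL-1 and Karpas 299 after 6 days in 1 µM 5-aza-2'-deoxycytidine, with 625 nM trichostatin A for the last 24 hours. Untreated ALCL cells were the same 4 lines without either drug. Treated T-cell leukaemia or lymphoma (T-cell) lines were Jurkat, CCRF-CEM, Molt-3 and Molt-4 under the same drugs, and untreated T-cell lines were those 4 without them. The 4 lines of a type are different lines rather than repeat cultures of 1 line, so the spread within a group is the spread between lines. Molt-3 and Molt-4 are known to come from the same patient. FE-PD is known as an ALCL line without the ALK fusion that the other ALCL lines carry. No group is described as grown in low oxygen.

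5-aza-2'-deoxycytidine is a cytosine analogue that traps DNA methyltransferases, so that DNA methylation is lost as cells divide, and trichostatin A inhibits histone deacetylases. Glycolysis carries glucose through a chain of enzymes to pyruvate, which lactate dehydrogenase reduces to lactate or the mitochondria oxidise. When oxygen is short, the prolyl hydroxylases stop marking the alpha subunit of hypoxia-inducible factor (HIF) for destruction, and HIF then raises transcription of glucose transporters, most glycolytic enzymes and genes for blood vessel growth, mitochondrial removal and collagen modification. Many proliferating tumour lines, lymphoid lines among them, run glycolysis strongly even with oxygen present.

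Values are log2 expression as deposited, so a difference of 1 is a doubling. A gene is read from the probe set with the highest mean where it has several, and levels are compared between arrays for 1 gene, never between genes. A gene is said to be called, or to rise, fall or differ, where limma's adjusted p over all 11963 genes was below 0.05. Unless SD is stated, the value after ± is limma's standard error of a log2 difference. Between cell types the difference is between groups of 4 lines each. For treatment it is the change within lines, with 1 spread shared by both cell types. The standard error of a gene's treatment change is therefore the same in both and does not show the spread of either. Of 8 T-cell markers, 6 had all untreated T-cell lines above all untreated ALCL lines, and CD2 and CD5 overlapped. Of 7 ALCL markers, 6 had all untreated ALCL lines above all untreated T-cell lines, and ALK overlapped. CD3E, a chain of the T-cell receptor complex, ran between 7.20 and 7.96 in untreated ALCL lines, against 10.6 to 10.9 in untreated T-cell lines. TNFRSF8, the ALCL marker CD30, ran between 11.004 and 12.052 in untreated ALCL lines, against 7.338 to 8.263 in untreated T-cell lines. ALK reached only 6.39 in the lowest untreated ALCL line and 11.1 in the highest. The mean over a list of 8 T-cell markers was 7.62 to 8.17 in treated T-cell lines, against 9.34 to 10.6 in untreated ones, and 7.25 to 7.42 in treated ALCL lines, against 6.89 to 7.37 in untreated ones. The mean over the 7 ALCL markers was 9.90 to 11.4 in treated ALCL lines, against 11.1 to 12.0 in untreated ones, and 7.01 to 7.59 in treated T-cell lines, against 6.14 to 6.78 in untreated ones. The part of these marker shifts in the treatment results was not tested. Each array measured 1 cell line in bulk, so a change in all its cells and a change in part of them cannot be told apart.

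The treated arrays also differed from the untreated ones as arrays. The spread of all genes within an array (SD, log2) was 1.65 ± 0.0933 on treated arrays and 1.82 ± 0.0371 on untreated arrays (SD, n = 8 each), lower after treatment in 8 of 8 lines (exact two-sided sign-flip test, p = 0.00781, Benjamini-Hochberg adjusted p = 0.0176 over 9 such measures). The gap between the 3' and the 5' control probe set of GAPDH, which widens when RNA or its labelled copy is shorter, was 0.331 ± 0.237 on treated arrays and 0.0328 ± 0.0502 on untreated arrays (SD, n = 8 each), wider after treatment in 8 of 8 lines (exact p = 0.00781, adjusted p = 0.0176). A control probe set for 28S ribosomal RNA stood between 12.1 and 14.3 on the treated arrays of Molt-3, Molt-4, JB6, FE-PD and SU-DHL-1, and averaged 7.20 on untreated arrays. It did not rise this way in Karpas 299, CCRF-CEM or Jurkat, so treatment results are also given for these 3 lines, called here the lines without the 28S rise.

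The regions before the members' start sites are shown for 4 genes on which the results turn: ALDOC, which rose with treatment in all 8 lines, LDHA, which fell with treatment in T-cell lines and was not called in ALCL lines, and PFKFB3 and BNIP3, which stood higher in untreated ALCL lines. Each is the 300 bases from 250 before to 50 after the annotated start, on the gene's strand, 5′ to 3′, from RefSeq on GRCh38.p14. Capitals mark ACGTG and GCGTG on either strand, the letters at the centre of HIF binding sites, and CACGTG counts as 2 matches because it reads the same on both strands.
ALDOC (chr17:28576846-28577145, minus strand): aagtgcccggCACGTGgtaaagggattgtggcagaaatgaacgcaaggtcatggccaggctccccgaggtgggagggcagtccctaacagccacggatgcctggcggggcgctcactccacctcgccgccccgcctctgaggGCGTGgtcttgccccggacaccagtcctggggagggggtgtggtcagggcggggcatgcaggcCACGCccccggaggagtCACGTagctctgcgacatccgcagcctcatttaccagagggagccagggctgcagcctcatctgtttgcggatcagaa
LDHA (chr11:18394313-18394612, plus strand): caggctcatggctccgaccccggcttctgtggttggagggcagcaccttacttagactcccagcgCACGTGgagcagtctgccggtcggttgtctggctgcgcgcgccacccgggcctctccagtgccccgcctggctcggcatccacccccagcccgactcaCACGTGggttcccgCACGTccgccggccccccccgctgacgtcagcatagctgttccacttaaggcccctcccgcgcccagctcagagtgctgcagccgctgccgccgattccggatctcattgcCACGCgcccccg
PFKFB3 (chr10:6144671-6144970, plus strand): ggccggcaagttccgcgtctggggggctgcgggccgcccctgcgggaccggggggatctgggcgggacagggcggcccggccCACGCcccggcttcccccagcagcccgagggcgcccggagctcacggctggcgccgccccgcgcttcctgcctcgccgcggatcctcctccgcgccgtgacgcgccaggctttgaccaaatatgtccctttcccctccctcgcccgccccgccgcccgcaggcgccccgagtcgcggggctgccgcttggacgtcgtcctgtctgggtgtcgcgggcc
BNIP3 (chr10:131981874-131982173, minus strand): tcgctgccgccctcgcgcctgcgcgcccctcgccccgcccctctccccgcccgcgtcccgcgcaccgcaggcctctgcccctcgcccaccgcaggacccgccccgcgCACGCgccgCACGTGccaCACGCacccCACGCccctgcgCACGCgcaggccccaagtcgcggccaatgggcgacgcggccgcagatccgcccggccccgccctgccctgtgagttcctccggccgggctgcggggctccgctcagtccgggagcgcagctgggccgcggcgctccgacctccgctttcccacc
In this window ALDOC held 3 ACGTG and 2 GCGTG matches and 19 CpG pairs. LDHA held 5 ACGTG matches, the most of these 4 genes, 1 GCGTG match and 29 CpG pairs. PFKFB3 held no ACGTG match, 1 GCGTG match and 42 CpG pairs. BNIP3 held 2 ACGTG and 4 GCGTG matches and 48 CpG pairs. Of the 32 members, 28 had such a region in the table used. ACGTG occurred in 11 of the 28 (39.3%), against 24.8% of the 9563 regions of genes on the array and 21.4% of all 35116 regions. GCGTG occurred in 15 of the 28 (53.6%), against 46.6% and 36.5% of those regions. The median number of CpG pairs was 29.5 in the members and 24 over the genes on the array. Of the 7 members with a region that were higher in untreated ALCL lines, 1 held ACGTG and 6 held GCGTG, against 10 and 9 of the 21 that were not called. Of the 7 members with a region that rose in treated T-cell lines, 2 held ACGTG and 5 held GCGTG, and of the 7 that fell, 3 held each, against 6 and 7 of the 14 that were not called. These counts were not tested. A match here is a match of letters, and the arrays measured neither binding nor methylation.

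The comparison of untreated ALCL with untreated T-cell lines asks how these genes differed between the lymphoma lines and the T-cell lines before any drug. Of the 32 members, 8 were higher in untreated ALCL lines and none was lower, beside 8.76% of all genes called in either direction, 3.18% higher and 5.58% lower. The largest of these differences lay in glucose entry and its regulation, with the glucose transporter SLC2A3 8.72-fold and the regulatory kinase PFKFB3 8.43-fold higher. The median member lay 0.54 higher, against 0.04 for all genes. In all, 25 of the 32 members had a higher mean in untreated ALCL lines, beside 55.5% of all genes. An unadjusted p of 0.05 was passed by 17 of 32, LDHB among them with a lower mean, beside 25% of all genes.

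SLC2A3 encodes GLUT3, a high-affinity glucose transporter. Its level was 9.67, 10.91, 10.14 and 10.29 in untreated JB6, FE-PD, SU-DHL-1 and Karpas 299, against 7.19, 7.37, 6.92 and 7.02 in untreated Jurkat, CCRF-CEM, Molt-3 and Molt-4. The groups lay far apart, and the lines differed more within the ALCL group (SD 0.51) than within the T-cell group (SD 0.20). The difference was 3.12 ± 0.25 (adjusted p = 0.000335). SLC2A1, the widely expressed transporter GLUT1, was 0.69 ± 0.20 higher in untreated ALCL lines and missed the threshold (adjusted p = 0.0773). PFKFB3 makes fructose-2,6-bisphosphate, the strongest activator of phosphofructokinase. It measured 9.57, 8.87, 10.12 and 9.46 in untreated JB6, FE-PD, SU-DHL-1 and Karpas 299, against 6.70, 6.83, 6.10 and 6.08 in untreated Jurkat, CCRF-CEM, Molt-3 and Molt-4. Every ALCL line stood above every T-cell line by over 1 log2 unit, and the difference was 3.07 ± 0.29 (adjusted p = 0.00081). Its relative PFKFB4 was 0.73 ± 0.19 higher (adjusted p = 0.0492), with SU-DHL-1 at 7.98 just under Jurkat at 7.99.

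Of the 7 enzymes grouped here as the lower part of the pathway, from triosephosphate isomerase to pyruvate kinase, 3 were higher in untreated ALCL lines. Triosephosphate isomerase itself acts before the steps that yield ATP and is often counted with the upper part. PKM, pyruvate kinase, was at 12.66, 12.76, 12.44 and 12.67 in untreated JB6, FE-PD, SU-DHL-1 and Karpas 299, against 11.18, 11.89, 10.75 and 11.07 in untreated Jurkat, CCRF-CEM, Molt-3 and Molt-4. The groups did not overlap, and CCRF-CEM came nearest to the ALCL lines. The difference in PKM was 1.41 ± 0.23 (adjusted p = 0.00909). A dimmer PKM probe set, with a mean of 6.99, differed by 0.28 and did not pass (adjusted p = 0.0946 over all probe sets). ENO1, the common enolase, was 0.69 ± 0.14 higher (adjusted p = 0.0212) with 12.79 to 13.26 in ALCL lines, against 12.06 to 12.44 in T-cell lines. TPI1, triosephosphate isomerase, was 0.61 ± 0.12 higher (adjusted p = 0.0225). The other enolase, ENO2, lay 0.54 ± 0.22 higher and did not pass (adjusted p = 0.176). GAPDH differed by -0.02 ± 0.09 (adjusted p = 0.897), with ranges of 14.01 to 14.19 in ALCL lines and 14.08 to 14.17 in T-cell lines.

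None of the 8 enzymes grouped here as the upper part, from hexokinase to aldolase, was called. These steps spend ATP to split glucose. The nearest were PFKL, the liver-type phosphofructokinase, at 0.63 ± 0.16 (adjusted p = 0.0529), GPI, glucose-6-phosphate isomerase, at 0.68 ± 0.20 (adjusted p = 0.0765), and the hexokinase HK1 at 0.96 ± 0.29 (adjusted p = 0.0841). Single lines set the spread of other enzymes here. The second hexokinase HK2 was at 6.66 in untreated Karpas 299 and at 8.90 to 9.38 in the other untreated ALCL lines, against 8.23 to 8.83 in untreated T-cell lines. A dimmer HK2 probe set, with a mean of 6.47, was lower in untreated ALCL lines (-0.75, adjusted p = 0.0477 over all probe sets). Aldolase C, ALDOC, measured 8.43, 7.04, 9.18 and 12.22 in untreated JB6, FE-PD, SU-DHL-1 and Karpas 299, against 8.95, 10.14, 9.49 and 9.53 in untreated Jurkat, CCRF-CEM, Molt-3 and Molt-4. The ALCL lines thus spread on both sides of the T-cell lines. LDHA, the lactate dehydrogenase chain that favours lactate, was 0.52 ± 0.14 higher and missed the threshold (adjusted p = 0.0521), while its partner LDHB lay at -0.23 ± 0.10 (adjusted p = 0.184).

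Of the 9 genes of the low-oxygen response, 2 were higher in untreated ALCL lines. HIF1A encodes the alpha subunit itself, whose activity is mostly set at the protein level. Its RNA was 11.05, 10.79, 10.23 and 10.75 in untreated JB6, FE-PD, SU-DHL-1 and Karpas 299, against 9.23, 9.95, 9.93 and 9.89 in untreated Jurkat, CCRF-CEM, Molt-3 and Molt-4, a difference of 0.96 ± 0.22 (adjusted p = 0.0361). BNIP3, a mitochondrial receptor for autophagy, was at 8.92, 8.24, 9.76 and 8.24 in untreated JB6, FE-PD, SU-DHL-1 and Karpas 299, against 7.52, 7.41, 7.66 and 7.39 in untreated Jurkat, CCRF-CEM, Molt-3 and Molt-4. The groups did not overlap for either gene, though SU-DHL-1 stood apart for BNIP3, and that difference was 1.30 ± 0.32 (adjusted p = 0.0460). BNIP3L, its relative, differed by 0.07 ± 0.25 (adjusted p = 0.884). NDRG1, a gene induced by stress and low oxygen, was split among the ALCL lines, at 7.96, 7.55, 10.14 and 10.06 in untreated JB6, FE-PD, SU-DHL-1 and Karpas 299, against 7.30 to 7.91 in untreated T-cell lines. Its difference of 1.32 ± 0.60 did not pass (adjusted p = 0.220). The prolyl 4-hydroxylase subunit P4HA2 was at 7.04, 7.58, 5.66 and 8.63 in untreated JB6, FE-PD, SU-DHL-1 and Karpas 299, against 5.58 to 6.05 in untreated T-cell lines. SU-DHL-1 alone lay in the T-cell range, and P4HA2 differed by 1.43 ± 0.54 (adjusted p = 0.148). Leaving out SU-DHL-1, the line that goes against the difference, gave an adjusted p of 0.0162. Leaving out any other single line gave no call.

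SLC2A3, PFKFB3 and PKM were called whichever single line was left out. The other 5 calls depended on single lines and also on the scaling or the fit. Centring arrays on the hybridisation spikes ended PFKFB4 (adjusted p = 0.176), TPI1 (0.292), ENO1 (0.209) and HIF1A (0.0511). Taking the line as a random block over all 16 arrays ended ENO1 (0.126), BNIP3 (0.0588) and HIF1A (0.0554). Centring on the array median ended BNIP3 (0.0561), and trend and robust empirical Bayes ended PFKFB4 (0.0605). Leaving out Molt-3 or Molt-4 ended all 5, and so did averaging Molt-3 and Molt-4 as 1 line (adjusted p = 0.108 for BNIP3, 0.08 for HIF1A, 0.135 for PFKFB4, 0.0577 for ENO1 and 0.0657 for TPI1). HIF1A also lost its call without any other line but SU-DHL-1 (adjusted p between 0.0541 and 0.0804), BNIP3 without JB6, CCRF-CEM or Jurkat (between 0.0891 and 0.101), PFKFB4 without FE-PD, JB6, Karpas 299 or CCRF-CEM (between 0.0799 and 0.106) and TPI1 without Karpas 299 or Jurkat (0.0518 and 0.0523).

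**Figure D1:**
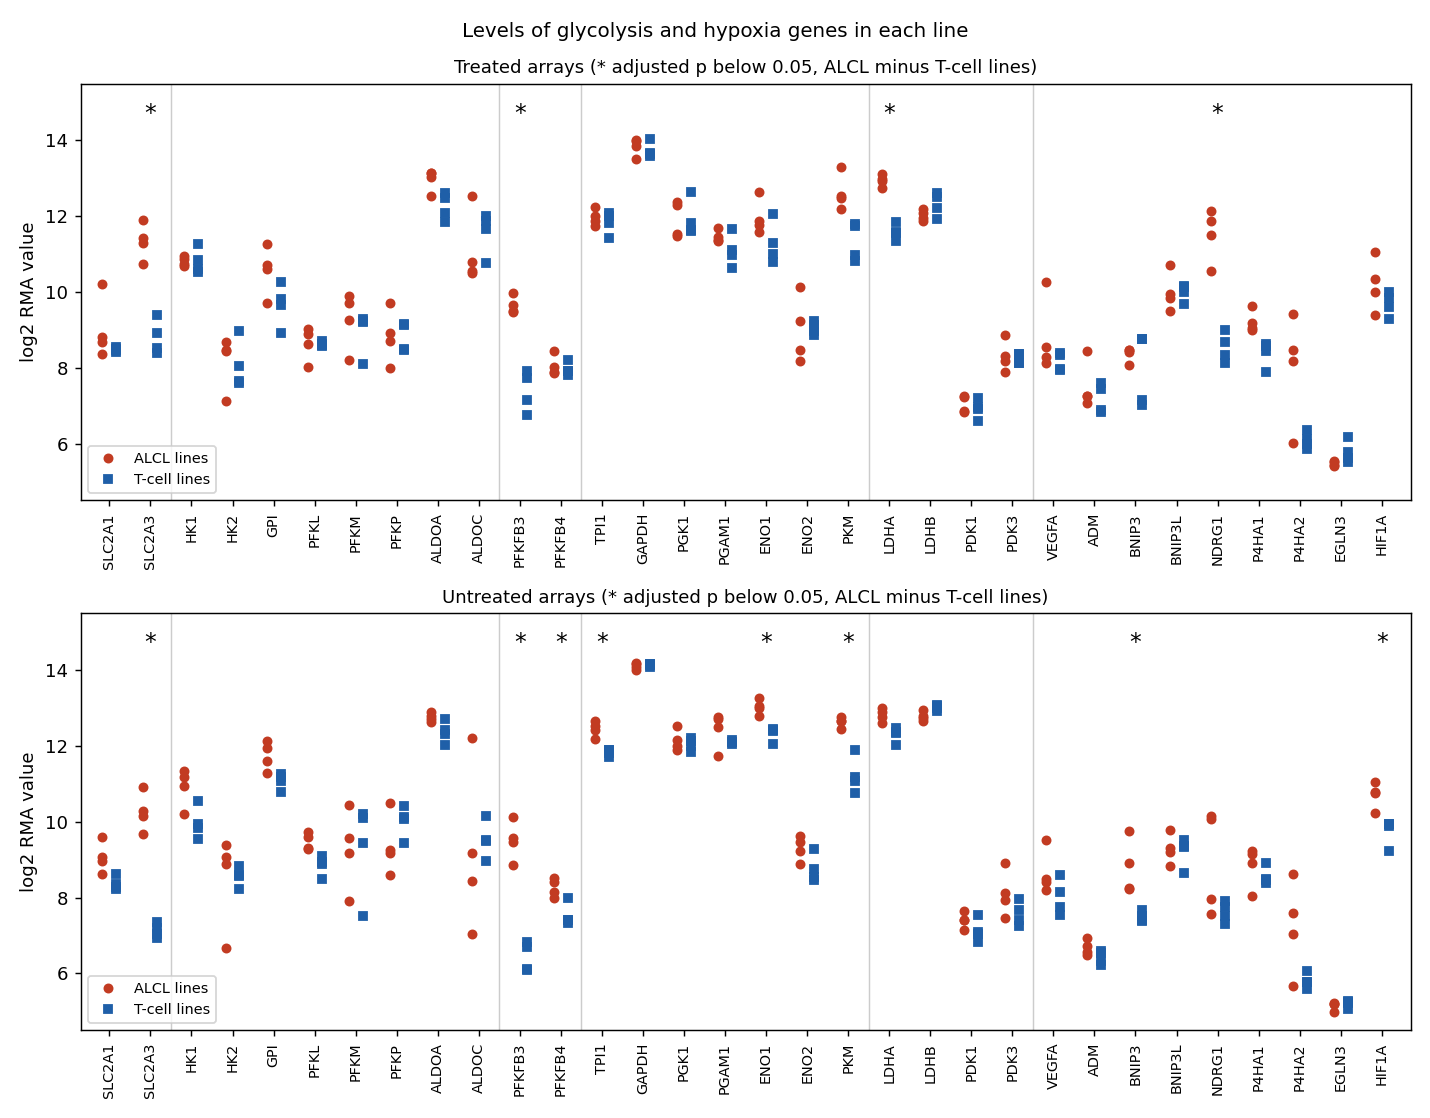
Level of each of the 32 members (log2, vertical axis) in treated lines (upper panel) and untreated lines (lower panel). Red circles are the 4 ALCL lines and blue squares, to their right, the 4 T-cell lines, 1 point per array, and * marks members called between the cell types, 4 in the treated panel and 8 in the untreated one. SLC2A3 and PFKFB3 show ALCL points well above T-cell points in both panels.

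The same comparison was made in other genes of these pathways. Their lists came from textbook knowledge but were drawn up with earlier results of these data known, so they are not independent support. Over all genes 8.76% were called, 3.18% higher and 5.58% lower in untreated ALCL lines, with a median of 0.04. The list counts were not tested against these shares. Of 39 measured hypoxia-induced HIF targets outside the members, 11 were higher and none lower in untreated ALCL lines, with a median of 0.46. They included the repressor of transcription BHLHE40 at 4.38 ± 0.51 (adjusted p = 0.00213), the adenylate kinase AK4 at 3.01 ± 0.26 (adjusted p = 0.000543), the nuclear receptor RORA at 2.72 ± 0.26 (adjusted p = 0.000822) and the lysyl hydroxylase PLOD1 at 1.20 ± 0.10 (adjusted p = 0.000429). Of 19 HIF subunits and regulators, 2 were higher and none lower: EPAS1, the alpha subunit HIF-2 alpha, at 2.90 ± 0.61 (adjusted p = 0.0251) and CITED2, which competes with HIF for its coactivators, at 3.12 ± 0.41 (adjusted p = 0.00378). No gene was called among 22 other glycolytic and gluconeogenic enzymes or among 19 genes of pyruvate and lactate handling. Of 11 pentose phosphate genes 1 was higher, and of 17 genes of the tricarboxylic acid cycle 2 were lower.

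Treatment was compared with no treatment within each line, in 1 fit of all 16 arrays with the line as a block. In treated T-cell lines 17 of the 32 members changed, 10 higher and 7 lower, beside 41.9% of all genes called, 21.7% higher and 20.2% lower. In treated ALCL lines 11 of 32 changed, 5 higher and 6 lower, beside 21.4% of all genes called, 8.04% higher and 13.4% lower. The members' median change was 0.06 in T-cell lines and -0.08 in ALCL lines, against 0.14 and 0.09 for all genes. The pathway did not move as a whole: SLC2A3, ALDOC, NDRG1 and ADM rose in both cell types, and GPI, PGAM1, ENO1 and LDHB fell in both. No member was called in opposite directions, 12 members were called in neither cell type, and the range of members not called was -0.49 to 0.42 in T-cell lines and -0.55 to 0.71 in ALCL lines.

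**Figure D2:**
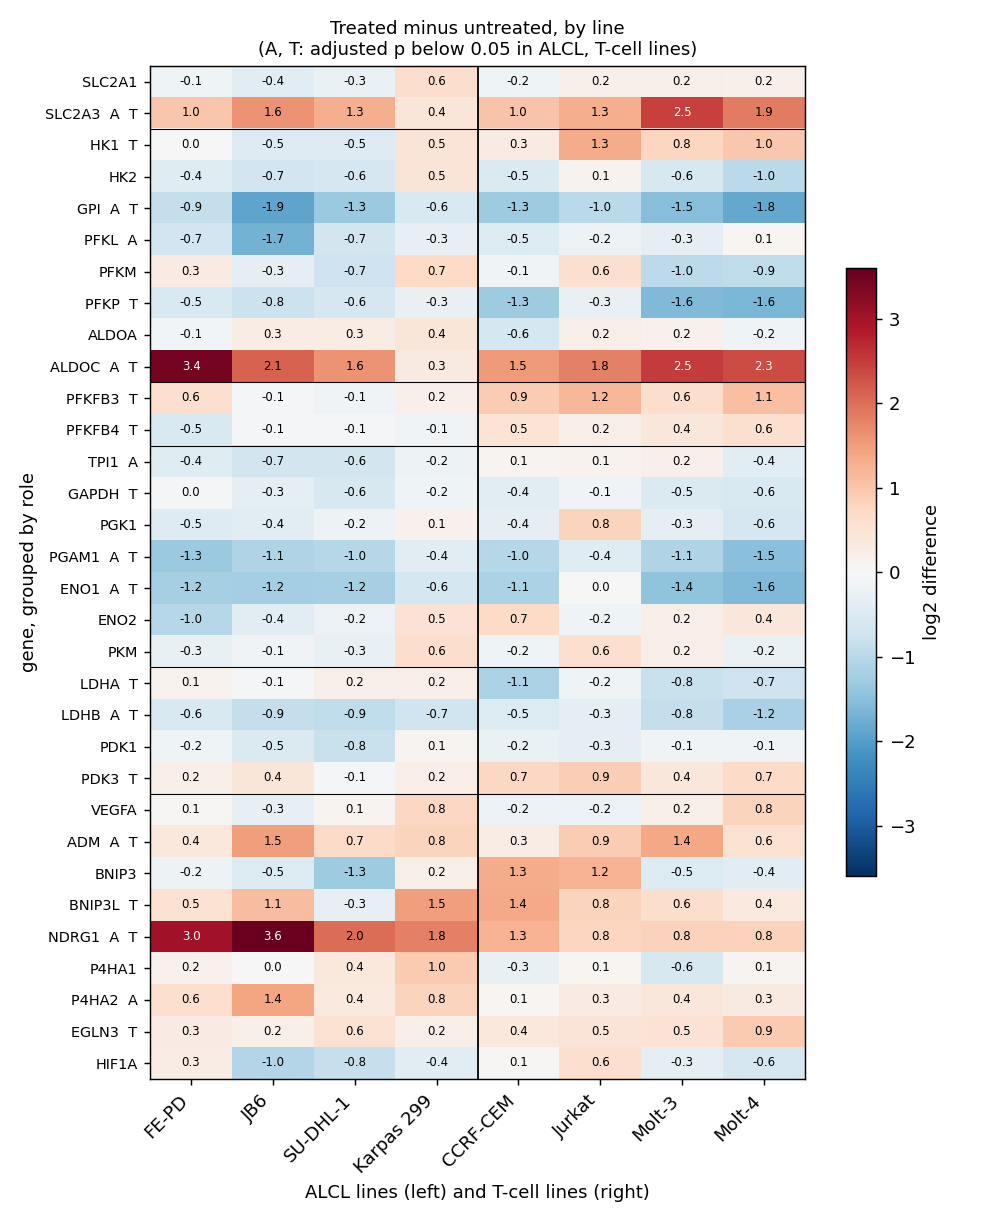
Treated minus untreated level (log2, colour) of each of the 32 members (rows) in each line (columns), with the 4 ALCL lines left of the 4 T-cell lines. The marks A and T show members called in ALCL and in T-cell lines, and SLC2A3, ALDOC, NDRG1 and ADM are higher and GPI, PGAM1, ENO1 and LDHB lower in all 8 columns.

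The genes that rose in both cell types span entry of glucose, 1 step of the pathway and the stress response. SLC2A3 was at 11.29, 11.90, 11.44 and 10.73 in treated JB6, FE-PD, SU-DHL-1 and Karpas 299, against 9.67, 10.91, 10.14 and 10.29 in the same lines untreated, a rise of 1.09 ± 0.24 (2.13-fold, adjusted p = 0.0116). In T-cell lines it was at 8.51, 8.39, 9.39 and 8.91 in treated Jurkat, CCRF-CEM, Molt-3 and Molt-4, against 7.19, 7.37, 6.92 and 7.02 in the same lines untreated, a rise of 1.67 ± 0.24 (3.19-fold, adjusted p = 0.000855). Treated and untreated arrays did not overlap in the T-cell lines, while the lowest treated ALCL array, Karpas 299, lay under untreated FE-PD. SLC2A1 had changes between -0.40 and 0.63 over the 8 lines and was not called in ALCL lines (-0.04 ± 0.17, adjusted p = 0.869) or in T-cell lines (0.11 ± 0.17, adjusted p = 0.6).

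ALDOC, the aldolase best known from brain, was at 10.55, 10.49, 10.79 and 12.54 in treated JB6, FE-PD, SU-DHL-1 and Karpas 299, against 8.43, 7.04, 9.18 and 12.22 in the same lines untreated. Karpas 299, the highest at the start, barely moved, while FE-PD gained 3.45, and the rise was 1.88 ± 0.39 (3.67-fold, adjusted p = 0.0081). It stood at 10.77, 11.66, 12.00 and 11.87 in treated Jurkat, CCRF-CEM, Molt-3 and Molt-4, against 8.95, 10.14, 9.49 and 9.53 in the same lines untreated, a rise of 2.05 ± 0.39 (4.13-fold, adjusted p = 0.00332). All 4 treated T-cell lines lay above every untreated one. ALDOA, the main aldolase of most cells, was called in neither type, at 0.21 ± 0.16 in ALCL lines (adjusted p = 0.35) and -0.11 ± 0.16 in T-cell lines (adjusted p = 0.592).

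NDRG1 was at 11.51, 10.57, 12.15 and 11.88 in treated JB6, FE-PD, SU-DHL-1 and Karpas 299, against 7.96, 7.55, 10.14 and 10.06 in the same lines untreated. The lines that started low gained most, every treated array lay above every untreated one, and the rise was 2.60 ± 0.25 (6.06-fold, adjusted p = 0.000234). In T-cell lines NDRG1 was at 8.67, 9.00, 8.34 and 8.14 in treated Jurkat, CCRF-CEM, Molt-3 and Molt-4, against 7.91, 7.74, 7.51 and 7.30 in the same lines untreated, a rise of 0.92 ± 0.25 (adjusted p = 0.0177). ADM, the vessel-dilating peptide adrenomedullin, rose by 0.83 ± 0.21 in ALCL lines (adjusted p = 0.0205) and by 0.79 ± 0.21 in T-cell lines (adjusted p = 0.0163). JB6 had the highest treated ADM level, 8.45, with the other treated ALCL lines between 7.08 and 7.27.

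Several of these rises depended on single lines or on the scaling. Without JB6 or SU-DHL-1 the ALCL rise lost its call for SLC2A3 (adjusted p = 0.0646 and 0.0524) and for ADM (0.0969 and 0.0533). In T-cell lines ADM lost its call without Jurkat or Molt-3 (0.053 and 0.0894), and NDRG1 without CCRF-CEM, Molt-3 or Molt-4 (0.0594, 0.0569 and 0.0564). With Molt-3 and Molt-4 averaged as 1 line, 12 of the 17 T-cell calls held, and NDRG1 (0.0557), ADM (0.0517), BNIP3L (0.0701), PFKFB4 (0.0919) and GAPDH (0.124) lost theirs. When arrays were centred on the hybridisation spikes, which moved the median change of all genes to -0.54 in T-cell lines and -0.52 in ALCL lines, SLC2A3 and ADM lost their calls in both types and NDRG1 in T-cell lines.

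**Figure D3:**
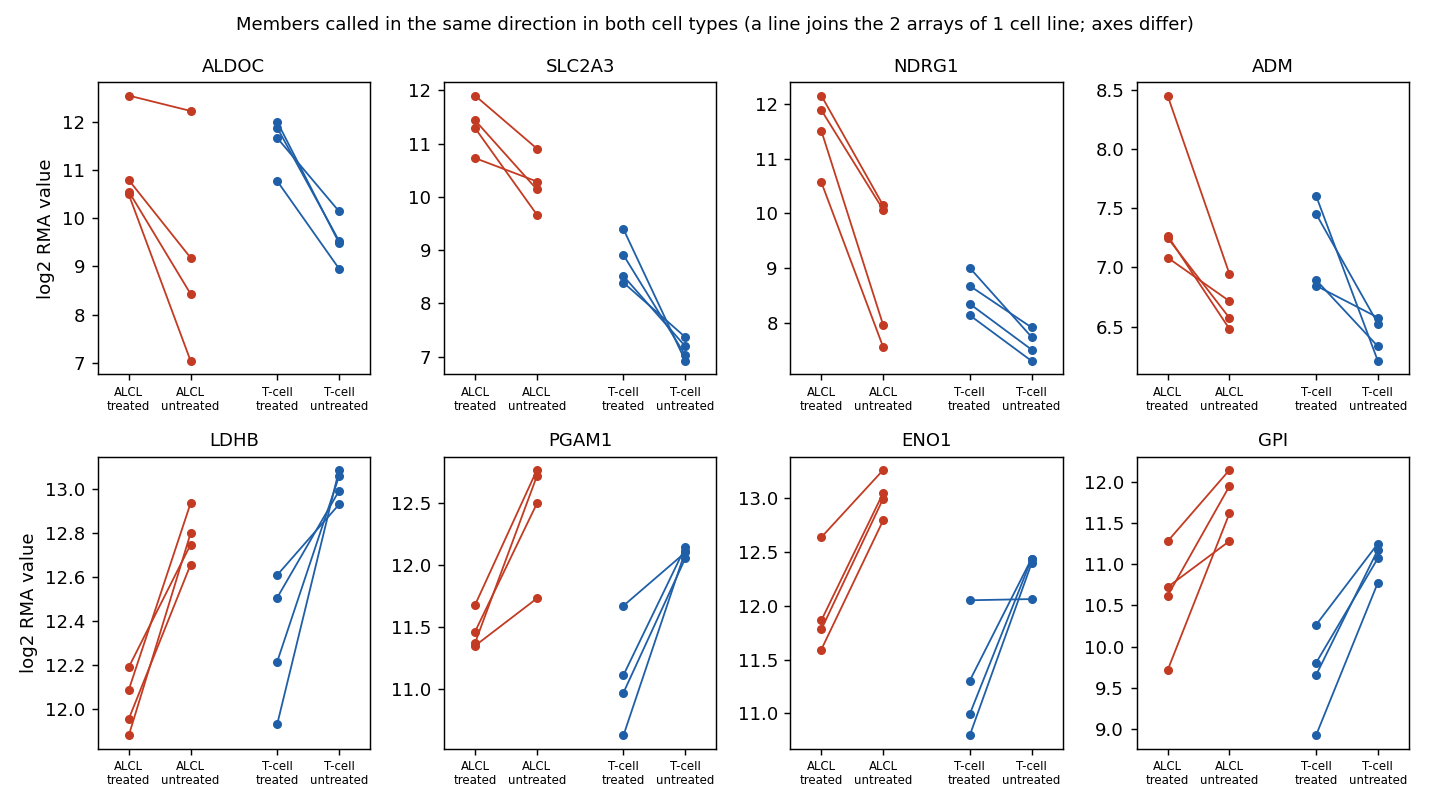
Treated (left) and untreated (right) level (log2) of the 8 members called in the same direction in both cell types, 1 panel per gene, with a line joining the 2 arrays of each cell line, red for ALCL and blue for T-cell lines. ALDOC, SLC2A3, NDRG1 and ADM are higher on the treated side in 8 of 8 lines and LDHB, PGAM1, ENO1 and GPI lower in 8 of 8.

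The genes that fell in both cell types are enzymes present in nearly all cells. GPI, which turns glucose 6-phosphate into fructose 6-phosphate, was at 9.71, 11.28, 10.62 and 10.72 in treated JB6, FE-PD, SU-DHL-1 and Karpas 299, against 11.62, 12.14, 11.95 and 11.28 in the same lines untreated. GPI measured 10.26, 9.80, 9.65 and 8.93 in treated Jurkat, CCRF-CEM, Molt-3 and Molt-4, against 11.25, 11.07, 11.17 and 10.78 in the same lines untreated. Every treated T-cell array lay under every untreated one, and of the treated ALCL arrays only FE-PD was level with an untreated one, that of Karpas 299. It fell by 1.16 ± 0.21 in ALCL lines (adjusted p = 0.00447) and by 1.40 ± 0.21 in T-cell lines (adjusted p = 0.00106).

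ENO1 was at 11.78, 11.59, 11.86 and 12.63 in treated JB6, FE-PD, SU-DHL-1 and Karpas 299, against 12.99, 12.79, 13.04 and 13.26 in the same lines untreated, a change of -1.05 ± 0.23 (adjusted p = 0.011). In treated Jurkat, CCRF-CEM, Molt-3 and Molt-4 it was at 12.05, 11.30, 10.99 and 10.80, against 12.06, 12.44, 12.43 and 12.39 in the same lines untreated, a change of -1.04 ± 0.23 (adjusted p = 0.00729). Jurkat barely moved, Karpas 299 moved least among the ALCL lines, and without JB6 the ALCL fall just lost its call (adjusted p = 0.0531). PGAM1, the phosphoglycerate mutase that acts 1 step before enolase, was at 11.67, 11.11, 10.97 and 10.62 in treated Jurkat, CCRF-CEM, Molt-3 and Molt-4, against 12.10, 12.14, 12.05 and 12.11 in the same lines untreated. Every treated T-cell array lay under every untreated one, and PGAM1 fell by 1.01 ± 0.19 in T-cell lines (adjusted p = 0.00336) and by 0.97 ± 0.19 in ALCL lines (adjusted p = 0.00667). LDHB, the lactate dehydrogenase chain that favours pyruvate, fell by 0.76 ± 0.15 in ALCL lines (adjusted p = 0.00642) and by 0.70 ± 0.15 in T-cell lines (adjusted p = 0.00592), with a lower value in 8 of 8 lines.

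Bright genes also fell more often than they rose with treatment. The part of the narrower spread of the treated arrays in this was not tested. Of the 226 genes with a mean of at least 11, 31% fell and 11.9% rose in T-cell lines, and 22.6% fell and 8.41% rose in ALCL lines, with median changes of -0.22 and -0.18. Of the 9 members among them, 5 fell in T-cell lines and 4 in ALCL lines, and none rose. Of the 23 dimmer members, 10 rose and 2 fell in T-cell lines, and 5 rose and 2 fell in ALCL lines, beside 21.9% of all dimmer genes higher and 20% lower in T-cell lines, and 8.03% and 13.2% in ALCL lines. Over all genes 14% were lower and 15.2% higher in all 8 lines, and over bright genes 26.1% and 10.6%. Among the members 6 were lower in all 8 lines, namely GPI, PFKP, GAPDH, PGAM1, ENO1 and LDHB, and 6 were higher, namely SLC2A3, ALDOC, NDRG1, ADM, P4HA2 and EGLN3. When arrays were set to the same median and SD, GPI, PGAM1 and ENO1 kept their falls in both types, LDHB kept its fall in ALCL lines but not in T-cell lines (adjusted p = 0.347), LDHA lost its fall in T-cell lines (adjusted p = 0.337), and GAPDH turned to 0.32 (adjusted p = 0.121).

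The calls were also counted by the 28S rise. For CCRF-CEM and Jurkat alone, 7 members rose and 1 fell, beside 4.19% of all genes higher and 8.32% lower, with a median change of 0.21 over the members. Molt-3 and Molt-4 were fitted together with the 3 ALCL lines that showed the rise, with 1 spread shared by both cell types. In Molt-3 and Molt-4, 5 members rose and 8 fell, beside 11.9% of all genes higher and 17.6% lower, with a median of -0.05. Karpas 299 is the only ALCL line without the rise, so its 1 pair of arrays took its spread from the T-cell lines without the rise. No member was called in it, beside 0.0502% of all genes, and in the other 3 ALCL lines 4 rose and 7 fell, beside 6.58% of all genes higher and 13.1% lower. GPI was lower in each of Karpas 299, CCRF-CEM and Jurkat, by 0.56, 1.27 and 0.98. LDHB was lower in the same lines by 0.70, 0.49 and 0.32, PGAM1 by 0.38, 1.03 and 0.43, and ENO1 by 0.62, 1.13 and 0.01. The part of RNA quality and array spread in these falls was not tested.

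GAPDH can be read from the array's control probe sets as well. The enzyme, which makes NADH while oxidising glyceraldehyde 3-phosphate, is widely used as a loading reference. Its level was 13.86, 13.98, 13.52 and 14.01 in treated JB6, FE-PD, SU-DHL-1 and Karpas 299, against 14.19, 14.01, 14.10 and 14.17 in the same lines untreated, a change of -0.27 ± 0.13 that was not called (adjusted p = 0.157). In T-cell lines GAPDH was at 14.03, 13.66, 13.64 and 13.59 in treated Jurkat, CCRF-CEM, Molt-3 and Molt-4, against 14.16, 14.08, 14.17 and 14.14 in the same lines untreated, and it fell by 0.41 ± 0.13 (adjusted p = 0.0318). The array's own GAPDH control probe sets changed by -0.158 ± 0.114 at the 3' end, -0.464 ± 0.220 in the middle and -0.456 ± 0.280 at the 5' end (mean ± SD over 8 lines). The T-cell call was lost without CCRF-CEM, Molt-3 or Molt-4 (adjusted p = 0.0718, 0.129 and 0.126).

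In T-cell lines 9 further members were called that were not called in ALCL lines: the rises of PFKFB3, PFKFB4, HK1, PDK3, EGLN3 and BNIP3L, and the falls of PFKP, LDHA and GAPDH. PFKFB3 was at 7.90, 7.74, 6.75 and 7.15 in treated Jurkat, CCRF-CEM, Molt-3 and Molt-4, against 6.70, 6.83, 6.10 and 6.08 in the same lines untreated, a rise of 0.96 ± 0.15 (adjusted p = 0.00131). In ALCL lines, where it began about 3 units higher, its change was 0.15 ± 0.15 (adjusted p = 0.488). HK1, which commits glucose to the cell, rose by 0.85 ± 0.20 in T-cell lines (adjusted p = 0.00879), with all 4 lines higher, and lay at -0.11 ± 0.20 in ALCL lines. HK2 was lower in 3 of 4 T-cell lines and not called (-0.49 ± 0.22, adjusted p = 0.0945). Its dimmer probe set, with a mean of 6.47, did pass there (-0.52, adjusted p = 0.0174 over all probe sets). PDK3, a kinase that switches off pyruvate dehydrogenase, rose by 0.68 ± 0.13 (adjusted p = 0.0032), while PDK1 lay at -0.20 ± 0.15 (adjusted p = 0.289).

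Among the phosphofructokinases, which carry the committed step, the platelet form PFKP fell in T-cell lines. It measured 9.15, 9.14, 8.46 and 8.49 in treated Jurkat, CCRF-CEM, Molt-3 and Molt-4, against 9.43, 10.43, 10.06 and 10.13 in the same lines untreated, a change of -1.20 ± 0.21 (adjusted p = 0.00222). Jurkat began lowest and moved least. LDHA was at 11.85, 11.35, 11.57 and 11.59 in treated Jurkat, CCRF-CEM, Molt-3 and Molt-4, against 12.02, 12.48, 12.37 and 12.34 in the same lines untreated, a change of -0.71 ± 0.15 (adjusted p = 0.00624). In ALCL lines LDHA lay between 12.75 and 13.12 treated, against 12.61 to 13.01 untreated, with a change of 0.12 ± 0.15 (adjusted p = 0.574). EGLN3, a prolyl hydroxylase that acts on HIF, rose by 0.58 ± 0.13 in T-cell lines (adjusted p = 0.007) at levels between 5.05 and 6.16, near the bottom of the arrays' scale. BNIP3L rose by 0.79 ± 0.26 in T-cell lines (adjusted p = 0.0361) but lost its call without any 1 of the 4 T-cell lines (adjusted p between 0.058 and 0.13), and PFKFB4 rose by 0.42 ± 0.13 (adjusted p = 0.0247) but lost its call without CCRF-CEM, Molt-3 or Molt-4 (0.069, 0.0865 and 0.106).

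BNIP3 split the T-cell lines. It was at 8.76, 8.75, 7.15 and 7.004 in treated Jurkat, CCRF-CEM, Molt-3 and Molt-4, against 7.52, 7.41, 7.66 and 7.39 in the same lines untreated. The 2 lines without the 28S rise gained over 1 unit and the 2 lines with it lost up to 0.50. The change over all 4 was 0.42 ± 0.34 (adjusted p = 0.323). In CCRF-CEM and Jurkat alone the BNIP3 change was 1.29, from only 2 pairs of arrays. With centring on the spikes, PFKFB4, PDK3 and EGLN3 turned below 0 in T-cell lines, with changes of -0.26, -0.00 and -0.10 beside the median of -0.54 over all genes, and PFKFB3, HK1 and BNIP3L lost their calls.

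In ALCL lines 3 members were called that were not called in T-cell lines. P4HA2, a subunit of the enzyme that hydroxylates proline in collagen, was at 8.47, 8.19, 6.02 and 9.42 in treated JB6, FE-PD, SU-DHL-1 and Karpas 299, against 7.04, 7.58, 5.66 and 8.63 in the same lines untreated. All 4 lines gained, JB6 most, and the rise was 0.80 ± 0.17 (adjusted p = 0.00814). Without the line as a block, or with spike centring, P4HA2 lost its call (adjusted p = 0.403 and 0.729). P4HA1 lay at 0.38 ± 0.17 (adjusted p = 0.142). PFKL fell by 0.84 ± 0.20 (adjusted p = 0.017), most in JB6, and the muscle form PFKM lay at -0.01 ± 0.28 (adjusted p = 0.978). TPI1 fell by 0.48 ± 0.14 (adjusted p = 0.0353), a call that was lost without FE-PD, JB6, SU-DHL-1 or Molt-3 (adjusted p = 0.0612, 0.127, 0.141 and 0.0546). HIF1A itself was called in neither type, at -0.51 ± 0.24 in ALCL lines (adjusted p = 0.147) and -0.07 ± 0.24 in T-cell lines (adjusted p = 0.815). VEGFA, the main vessel growth factor, lay at 0.15 ± 0.20 in ALCL lines (adjusted p = 0.599) and 0.15 ± 0.20 in T-cell lines (adjusted p = 0.565).

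The difference between the 2 treatment effects was tested by the interaction, and by limma no member passed, beside 1.68% of all genes called (1.11% with a positive and 0.568% with a negative difference), while 8 of 32 members passed an unadjusted p of 0.05, beside 13% of all genes. A call in 1 cell type and not in the other is therefore not shown to differ between them. NDRG1 came nearest, with an effect 1.67 ± 0.36 larger in ALCL lines (adjusted p = 0.0524). It passed in 6 of 20 alternative settings, and its difference ranged from 0.81 to 2.02 over them. Of the lines left out in turn, it passed without SU-DHL-1 (adjusted p = 0.0449) or Karpas 299 (0.0301) and without no other. LDHA followed with 0.83 ± 0.22 (adjusted p = 0.106) and passed in 2 of 20 alternative settings, 1 of them without Jurkat (0.04). Negative values, meaning a larger rise in T-cell lines, were found for PFKFB3 at -0.81 ± 0.21 (adjusted p = 0.113), PFKFB4 at -0.62 ± 0.18 (adjusted p = 0.145) and HK1 at -0.96 ± 0.28 (adjusted p = 0.153).

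After treatment 4 of the 32 members differed between the cell types, all higher in treated ALCL lines, beside 2.88% of all genes called, 1.35% higher and 1.53% lower. SLC2A3 was 2.54 ± 0.29 (5.81-fold) higher in treated ALCL than in treated T-cell lines (adjusted p = 0.00243), with 10.73 to 11.90 against 8.39 to 9.39. PFKFB3 was at 9.51, 9.47, 9.98 and 9.65 in treated JB6, FE-PD, SU-DHL-1 and Karpas 299, against 7.90, 7.74, 6.75 and 7.15 in treated Jurkat, CCRF-CEM, Molt-3 and Molt-4, a difference of 2.27 ± 0.26 (adjusted p = 0.00251). NDRG1 was at 11.51, 10.57, 12.15 and 11.88 in the treated ALCL lines, against 8.67, 9.00, 8.34 and 8.14 in the treated T-cell lines, a difference of 2.99 ± 0.34 (adjusted p = 0.00241). LDHA was at 12.94, 12.75, 13.12 and 12.97 in the treated ALCL lines, against 11.85, 11.35, 11.57 and 11.59 in the treated T-cell lines, a difference of 1.36 ± 0.16 (adjusted p = 0.00257). For these 4 genes every treated ALCL line lay above every treated T-cell line.

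The members not called after treatment ranged from -0.48 to 1.95, and the median of all members was 0.31, against -0.03 for all genes. PKM, called before treatment, kept a difference of 1.29 ± 0.30 that just missed the threshold (adjusted p = 0.0583). P4HA2 lay 1.95 ± 0.60 higher (adjusted p = 0.132). Leaving out SU-DHL-1, its lowest treated ALCL line, gave an adjusted p of 0.00456, and leaving out any other single line gave no call. HIF1A differed by 0.52 ± 0.33 (adjusted p = 0.532) after treatment, with a range of 9.39 to 11.05 in treated ALCL lines and 9.28 to 10.01 in treated T-cell lines. The treated and the untreated comparison use the same lines, so they are not independent of each other.

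Probe sets of 1 gene mostly moved together, with exceptions among the dimmer ones. The 3 probe sets of SLC2A3 gave 3.12, 4.47 and 3.49 between untreated ALCL and T-cell lines and changes of 1.67, 2.31 and 1.43 in treated T-cell lines. SLC2A14 is a close copy of this gene, and signal from it cannot be told apart here. For ENO1 the 2 bright probe sets fell by 1.05 and 1.95 in ALCL lines and by 1.04 and 1.57 in T-cell lines. A dimmer ENO1 probe set, with a mean of 8.30, changed by 0.03 and 0.62, and its T-cell rise passed (adjusted p = 0.0126 over all probe sets). The GAPDH probe sets changed by -0.41, -0.32 and -0.46 in T-cell lines (adjusted p = 0.0306, 0.0757 and 0.0268 over all probe sets). For PKM the main probe set changed by -0.00 in ALCL lines, while a second with a mean of 6.99 rose by 0.84 (adjusted p = 0.00485 over all probe sets). In T-cell lines these 2 changed by 0.11 and 0.48 (adjusted p = 0.643 and 0.03 over all probe sets). Between untreated ALCL and T-cell lines they gave 1.41 and 0.28 (adjusted p = 0.00981 and 0.0946 over all probe sets). The other probe sets of PDK3 changed by -0.01 and 0.20 in T-cell lines, so its rise rests on 1 of 3.

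**Figure D4:**
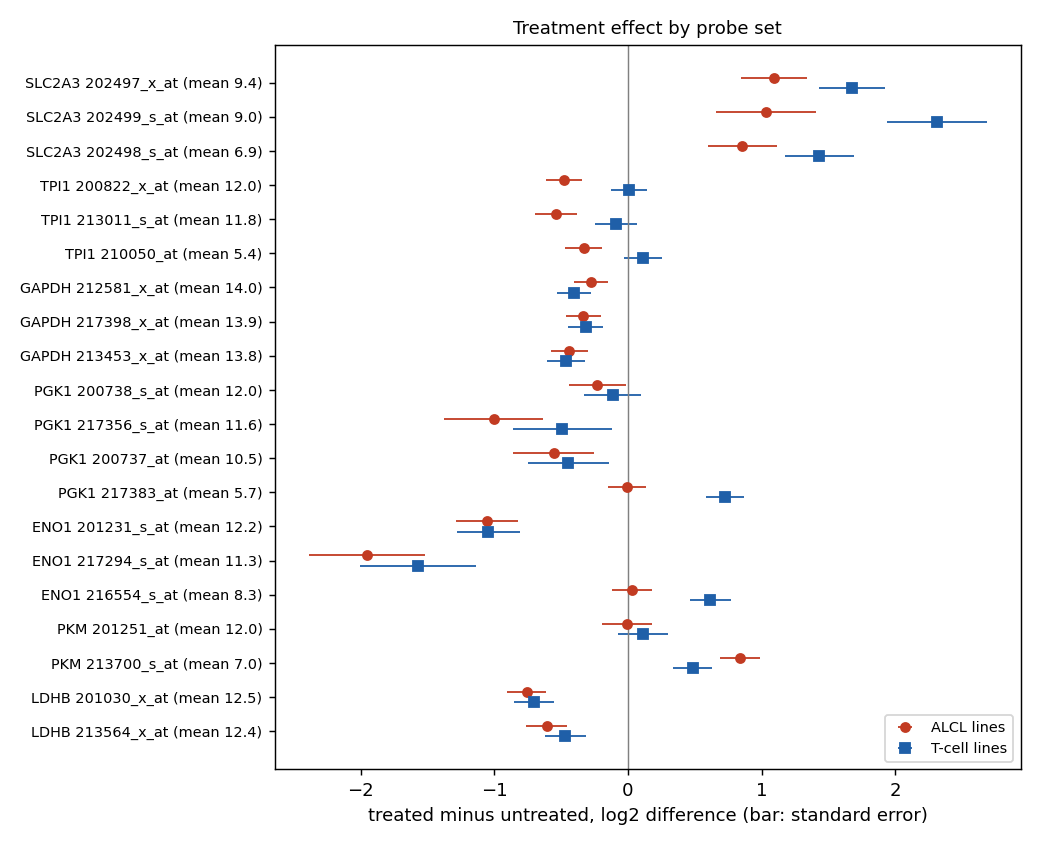
Treatment change (log2, treated minus untreated) of each probe set of 7 members with several probe sets, 1 row per probe set, with red circles for ALCL and blue squares for T-cell lines, bars of 1 standard error to each side and the mean level of the probe set in the label. All 3 SLC2A3 probe sets have changes above 0 in both cell types, while the dimmest ENO1 and PGK1 probe sets lie on the other side of 0 from the brighter ones in T-cell lines.

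Genes around the members were counted under treatment as well. Over all genes 8.04% rose and 13.4% fell in ALCL lines, and 21.7% rose and 20.2% fell in T-cell lines. The list counts were not tested against these shares. Of 11 pentose phosphate genes 6 fell in each cell type, with 2 rises in T-cell lines and 1 in ALCL lines. The lactonase PGLS fell by 1.40 ± 0.15 in ALCL lines (adjusted p = 0.00039) and by 2.08 ± 0.15 in T-cell lines (adjusted p = 4e-05), while TKTL1, a transketolase-like gene, rose by 4.90 ± 0.40 in ALCL lines (adjusted p = 0.000122) and by 4.64 ± 0.40 in T-cell lines (adjusted p = 8.4e-05). Of 17 genes of the tricarboxylic acid cycle 6 fell and 1 rose in each type, led by the succinyl-CoA ligase subunit SUCLG2 at -2.04 ± 0.20 in ALCL lines and -2.35 ± 0.20 in T-cell lines. IDH2, the mitochondrial isocitrate dehydrogenase, fell by 2.42 ± 0.25 in T-cell lines and lay at 0.09 ± 0.25 in ALCL lines, and this difference passed the interaction test (2.51 ± 0.35, adjusted p = 0.00786). Of 19 genes of pyruvate and lactate handling 4 fell and 1 rose in ALCL lines, and 4 fell and 3 rose in T-cell lines. Among 22 other glycolytic and gluconeogenic enzymes 3 rose and 3 fell in ALCL lines, and 4 rose and 2 fell in T-cell lines, with PGM1, which links glycogen to glycolysis, falling by 1.14 ± 0.16 and 1.20 ± 0.16.

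The wider HIF lists held both rises and falls after treatment. Beside them, 8.04% of all genes rose and 13.4% fell in ALCL lines, and 21.7% rose and 20.2% fell in T-cell lines. These counts too were not tested against the shares. Of 39 other hypoxia-induced targets 7 rose and 6 fell in ALCL lines, and 10 rose and 4 fell in T-cell lines. The secreted glycoprotein STC1 rose by 2.50 ± 0.24 in ALCL lines (adjusted p = 0.000225), and its interaction of 1.96 ± 0.33 passed (adjusted p = 0.0197). The cytokine MIF fell by 1.32 ± 0.23 in ALCL lines (adjusted p = 0.00361) and by 1.96 ± 0.23 in T-cell lines (adjusted p = 0.000342), and GBE1, the glycogen branching enzyme, by 2.00 ± 0.33 and 1.83 ± 0.33. Of 19 HIF subunits and regulators 4 rose and 1 fell in ALCL lines, and 4 rose and 5 fell in T-cell lines. EPAS1 rose by 2.21 ± 0.28 in ALCL lines (adjusted p = 0.000837) and by 1.79 ± 0.28 in T-cell lines (adjusted p = 0.0013), and RBX1, part of the ubiquitin ligase that removes HIF, fell by 1.31 ± 0.27 and 1.79 ± 0.27.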

How the data were processed

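Expression was measured on 16 HG-U133A arrays, 1 treated and 1 untreated for each of 8 cell lines. The deposited values are log2 expression; the submitters' processing notes name RMA, run under R 2.10.1. How the arrays were normalized together is not given in the sources used here. Of 22283 probe sets, 19065 had 1 gene symbol in the platform annotation, which gave 11963 genes, 4310 of them with several probe sets. The probe set with the highest mean stood for each gene. The number of arrays limits the precision, and detection calls were not used here.

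Groups came from the labels. Differences were tested with limma 3.58.1 in R 4.3.3 (lmFit and eBayes, two-sided), with Benjamini-Hochberg adjustment over all 11963 genes and calls at 0.05, and the fit was tested on simulated data. Treatment effects and their interaction came from 1 fit of 16 arrays with the cell line as a replicate block, which left 6 residual degrees of freedom. Each comparison of cell types used 8 arrays. The labels give the same line treated and untreated, so lines pair the arrays; the deviations of a line's 2 arrays from their group means correlated at 0.33 to 0.643 across genes, and the highest correlation with another line of the type was 0.399, between Molt-3 and Molt-4.

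The members and lists were chosen with earlier results of these data known. Members called with a log2 difference of at least 1 are given in every line, other called members by their difference, and uncalled members by range or beside an isoenzyme that was called. The other lists name up to 4 genes with the smallest adjusted p. Alternatives covered the block, probe set choice, a filter removing the lowest 40% of genes, array scaling, the empirical Bayes settings, each line left out and the 28S rise; averaging Molt-3 and Molt-4 was added after seeing the data. Promoter sequences are RefSeq's on GRCh38.p14.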

Additional observations from a re-analysis of the deposited data

Results flagged for a closer look

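In each group of 4 lines, the highest or lowest line was compared with the rest for every member's treated level, untreated level and change, and 18 of 192 such groups held a line that stood far apart. Chance gives about 1 in 20. None of these single values was explained, and the cause was not tested.

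Karpas 299 stood apart for 4 members among the ALCL lines. Its treated HK2 level was 7.13, against 8.45 to 8.69 in the other treated ALCL lines, and its treated ALDOC level was 12.54, against 10.49 to 10.79. Its change in ENO1 was -0.62, against -1.21 to -1.18, and its change in PKM was 0.63, against -0.27 to -0.13. FE-PD stood apart for 3 members, with a treated ALDOA level of 12.53, against 13.05 to 13.15, a treated BNIP3 level of 8.07, against 8.41 to 8.47, and a PFKFB4 change of -0.54, against -0.12 to -0.07. Treated JB6 had an ADM level of 8.45, against 7.08 to 7.27. Untreated SU-DHL-1 had an EGLN3 level of 4.99, against 5.19 to 5.23.

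Jurkat stood apart for 6 members among the T-cell lines. Its treated PFKM level was 8.09, against 9.20 to 9.30, and its treated GAPDH level was 14.03, against 13.59 to 13.66. Untreated, its PFKFB4 level was 7.99, against 7.34 to 7.41, its ENO1 level 12.06, against 12.39 to 12.44, its EGLN3 level 5.05, against 5.22 to 5.26, and its HIF1A level 9.23, against 9.89 to 9.95. In CCRF-CEM the change in SLC2A1 was -0.16, against 0.19 to 0.21 in the other T-cell lines, and the change in NDRG1 was 1.26, against 0.76 to 0.84. In Molt-4 the change in TPI1 was -0.39, against 0.11 to 0.19.

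PFKFB4 was lower after treatment in all 4 ALCL lines and higher in all 4 T-cell lines. The interaction was -0.62, and limma's adjusted p of 0.145 did not pass the threshold.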

How the results depend on the processing

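Over 3190 results of single members under alternatives, 2985 kept their side of the threshold, 144 lost a call and 56 gained one. The sign changed in 212, of which 207 were called in neither setting. The other 5 were, with centring on the spikes, PFKFB4 (-0.26), PDK3 (-0.0042) and EGLN3 (-0.10) in T-cell lines, with the same median and SD for all arrays GAPDH in T-cell lines (0.32), and with all probe sets of a gene averaged PKM in ALCL lines (0.42, adjusted p = 0.027). With spike centring 9 members were called in T-cell lines, 1 higher and 8 lower, 8 of them among the 17 and HK2 in addition, and it moved the median of all genes to -0.54 there, -0.52 in ALCL lines, 0.38 between untreated and 0.39 between treated cell types. In the lines without the 28S rise 8 members were called in T-cell lines, 0 in ALCL lines (Karpas 299 alone), 1 between untreated and 1 between treated cell types. In the lines with it 4 were called between untreated types. Averaging Molt-3 and Molt-4, chosen after seeing the data, left 3 of 8 between untreated types and 12 of 17 (6 higher, 6 lower) in T-cell lines. The line pairs the arrays, and with no replicate block 13 members were called in T-cell lines, 7 in ALCL lines and 0 for the interaction, ALDOC losing its call in both types (adjusted p = 0.143 in ALCL and 0.0633 in T-cell lines). The interaction gained 1 call with a random block (LDHA), and 1 each (NDRG1) with the mean of probe sets, with the lowest 40% of genes removed, with the same median and SD and with trend and robust empirical Bayes. With each line left out in turn, 12 to 17 members were called in T-cell lines, 7 to 12 in ALCL lines (7 without JB6), 0 to 1 for the interaction, 3 to 11 between untreated types (3 without Molt-3 or Molt-4) and 4 to 5 between treated types. No detection calls were used, so for dim members such as EGLN3 signal and background cannot be told apart.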
